A study of Mus musculus with 22 samples.

Results

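Collagens, elastic fibre proteins, small proteoglycans, matricellular proteins and the TGF-beta ligands were examined in the right lungs of female C57BL/6 mice after pulmonary exposure to Mitsui7, a multi-walled carbon nanotube. The genes were taken from a list of 44 names, and each was represented by the brightest probe whose RefSeq accession belongs to that gene. Such a probe was found for 42 of the 44, of 20018 genes named in this way on the array, and all 42 were expressed above background. The alpha chains Col6a3 and Col12a1 had no probe with a RefSeq accession and were not analysed here. The study compared 4 groups of mice, which were 8 weeks old when they entered it. Controls (n = 5) received the vehicle alone, saline with lavage fluid of other mice, and the treated groups received 18 µg (n = 6), 54 µg (n = 5) or 162 µg (n = 6) of Mitsui7 in that vehicle as a single intratracheal instillation. All lungs were collected 24 hours later. Lung RNA was labelled with Cy5 and hybridised on 2-colour Agilent arrays against Cy3-labelled Universal Mouse Reference RNA, a pool from mouse cell lines, so that each level given is the log2 of lung over reference for 1 probe. Levels of different genes were not compared with each other, because each ratio depends on the reference.

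The lung's connective tissue is built from fibrillar collagens, which carry tension in the walls of airways and vessels, and from elastic fibres, which let the alveoli recoil. Type IV collagen forms the sheet-like network of basement membranes under epithelium and endothelium. Matricellular proteins such as the CCN family are secreted into the matrix after injury and signal to cells rather than bear load. TGF-beta is stored in the matrix in a latent form, and much of its regulation lies in release from that store and not in transcription of its genes. Deposition of fibrillar collagen is the hallmark of pulmonary fibrosis, which develops over weeks, whereas the lungs studied here were taken after 1 day.

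All 42 genes were tested in limma with dose and slide as fixed effects over the 22 arrays, and p was adjusted over all probes of the array by the method of Benjamini and Hochberg. Estimates are log2 fold changes with their standard errors (SE), and p reflects the spread between the mice of these groups. To be called, a gene needed an adjusted p no higher than 0.05 and a difference of 1.5-fold or more. The share of probes above background ranged from 70.5% to 77.7% on the control arrays and from 52.1% to 83.5% on those of treated mice, and 4 treated mice lay below 60% (18 µg replicate 6, 54 µg replicate 3, 162 µg replicates 4 and 6). Slides 3 and 6 held no control. The 3 comparisons with controls share the same 5 control mice. Because the RNA came from whole lung, fewer cells of a type and less RNA per cell cannot be told apart.

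At 162 µg, 8 of the 42 genes were called against controls (19% of them, beside 6.85% of the 16433 expressed genes), 6 higher and 2 lower. Among all expressed genes 3.32% were called higher and 3.53% lower. The 42 genes were chosen with earlier results of these data known, so these shares are no test of the list. The genes that rose were Col4a1, Col4a2, Col6a1, Lox, Ccn1 and Ccn2, and those that fell were Col3a1 and Col14a1. The count was 5 without control replicate 3, 4 or 5 or 162 µg replicate 1 or 2, and 10 without 18 µg replicate 4. At 18 µg, 1 gene was called, Ccn1, which rose (2.06% of all expressed genes were called, 0.633% higher and 1.42% lower). That count was 0 without control replicate 1 or 18 µg replicate 5, and 2 without control replicate 2 (with Postn) or 54 µg replicate 5 (with Col14a1). At 54 µg none of the 42 was called by limma (0.353% of all expressed genes, 0.219% higher and 0.134% lower), while 12 of them, and 13.8% of all expressed genes, had an unadjusted p below 0.05. With only the 54 µg and control mice in the model 8 were called, 6 higher and 2 lower (Col6a2, Col14a1, Lox, Lum, Fn1, Tnc, Ccn1, Ccn2). That model kept the slide term, so these calls rest on the 3 slides that held both groups (2 for Fn1). Few arrays were then left to estimate the spread. In the full model 1 was called without 54 µg replicate 1 (Ccn2) and 2 without replicate 3 (Tnc, Ccn1) or replicate 5 (Col14a1, Ccn2). Without the 4 arrays below 60%, a setting chosen after seeing the data, the counts were 2 at 18 µg, 2 at 54 µg and 9 at 162 µg. The scaling of the arrays also mattered. At 162 µg, 3 genes were called with arrays centred on their median (Col4a1, Col14a1, Lox), 0 without normalization and 5 in the deposited log2 table (Col3a1, Col4a1, Lox, Mfap5, Ccn2), and at 18 µg Ccn1 was called in none of these. At 162 µg the call of Col3a1 was also lost from the Cy5 channel alone, that of Col4a2 with normexp background correction, and that of Col6a1 when the other doses were left out of the model, as was that of Ccn1 at 18 µg. The median log2 fold change of the 42 genes came to 0.03, 0.09 and 0.23 at 18, 54 and 162 µg, beside medians of -0.02, -0.01 and -0.01 over all expressed genes. With arrays centred on their median it was negative at 18 µg (-0.31) and 162 µg (-0.05), as it was without normalization (-0.47 and -0.07).

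**Figure D1:**
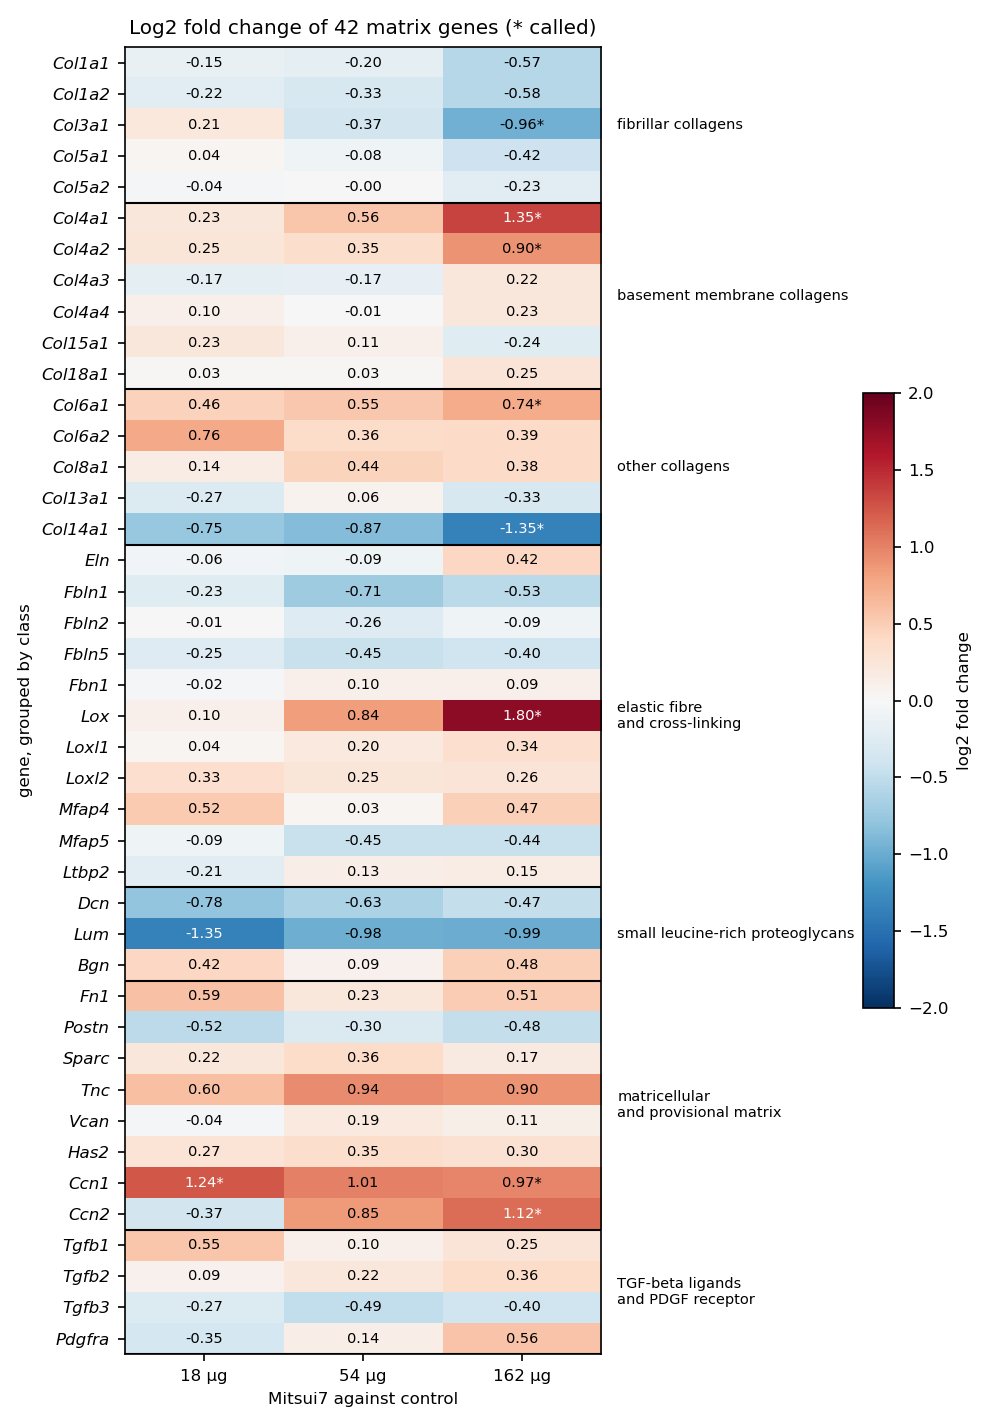
Log2 fold change against control (colour and number) of the 42 genes in rows, grouped by class, at 18, 54 and 162 µg in columns. Asterisks mark the 1 call at 18 µg and the 8 calls at 162 µg. The column of 162 µg holds 5 negative values among the 5 fibrillar collagens in this scaling and its highest value, 1.80, at Lox.

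The doses were also compared with each other. Between 162 µg and 18 µg, 5 of the 42 genes were called (4.98% of all expressed genes, 3.33% higher and 1.65% lower at 162 µg). Col4a1, Lox, Ccn2 and Pdgfra were higher at 162 µg and Col3a1 was lower. Between 54 µg and 18 µg the 1 gene called was Ccn2 (0.0304% of all expressed genes), and between 162 µg and 54 µg none was called (0% of all expressed genes), with 8 of the 42 and 12.2% of all expressed genes at an unadjusted p below 0.05. Without 54 µg replicate 3 both Col4a1 and Lox were called between 162 µg and 54 µg, and without 162 µg replicate 4 Lox alone.

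The values of single mice were compared as well. At 162 µg, Col4a1, Col4a2, Lox and Tnc lay above every control in each mouse and Col3a1, Col5a1 and Col14a1 below, while 3.72% of all expressed genes lay wholly above and 4.48% wholly below. At 18 µg, Col6a2 and Ccn1 lay above every control in each mouse and Col14a1 below (1.42% and 1.98% of all expressed genes). At 54 µg, Col8a1 and Tnc lay above and Fbln5 and Tgfb3 below (1.51% and 1.80%). Between 162 µg and 18 µg, Col4a1, Lox and Ccn2 did not overlap upwards and Col3a1 downwards (2.15% and 1.05%).

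Sequence at or before the annotated start is shown for genes on which these results turn. Of the 44 genes, 27 have a window in the RefSeq promoter table (build GRCm38.p6), which runs from 250 bases before to 50 bases after the annotated start, and these include 6 of the 9 genes called in any comparison. Col4a1 and Col4a2 lie head to head on opposite strands. The starts used for their windows are at bases 11312826 and 11312805 of chromosome 8, so that the windows overlap. The gene record of Col4a1 itself reaches base 11312889. Printed here are the 22 bases between these starts, chr8:11312805-11312826 on the plus strand, which are only part of the overlap. They lie after the start used for each gene and not before it. This stretch is shown because both genes were called higher at 162 µg.
Col4a1 and Col4a2, shared stretch: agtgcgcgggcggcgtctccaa

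The 250 bases before the start of Ccn1, the gene called at both 18 µg and 162 µg, lie at chr3:145649986-145650235 and are read from the minus strand. Those of Col3a1, the fibrillar collagen called lower, lie at chr1:45311288-45311537 on the plus strand. Capitals mark matches, on either strand, to 4 short motifs: the core promoter element TATAAA, the AP-1 motif TGANTCA, the TEAD motif CATTCC and the SMAD motif CAGAC.
Ccn1: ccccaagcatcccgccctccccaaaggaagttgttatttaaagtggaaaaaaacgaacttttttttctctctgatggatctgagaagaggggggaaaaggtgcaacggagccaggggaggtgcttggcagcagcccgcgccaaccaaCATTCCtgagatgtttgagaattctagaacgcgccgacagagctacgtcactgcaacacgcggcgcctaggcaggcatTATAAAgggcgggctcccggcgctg
Col3a1: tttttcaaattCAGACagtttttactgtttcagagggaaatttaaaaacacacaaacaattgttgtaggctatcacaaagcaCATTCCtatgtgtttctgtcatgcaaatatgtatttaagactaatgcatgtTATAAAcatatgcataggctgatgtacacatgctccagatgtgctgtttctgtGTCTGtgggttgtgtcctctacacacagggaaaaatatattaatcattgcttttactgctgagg

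The Ccn1 sequence holds CATTCC with its first base 103 bases before the start and TATAAA 25 bases before it. The Col3a1 sequence holds CAGAC 239 bases before the start, CATTCC 168 bases before, TATAAA 117 bases before and the reverse complement of CAGAC 64 bases before. In the windows of 300 bases, TATAAA was found for 6 of the 27 genes and in 13.6% of all 32851 promoters, TGANTCA for 1 and in 7.81%, CATTCC for 4 and in 14.7%, and CAGAC for 19 and in 49.6%. A gene was counted when any of its windows held the motif, whereas each percentage is of single windows, so the counts and percentages differ in unit. These matches describe letters only.

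The fibrillar collagens (Col1a1 and Col1a2 of type I, Col3a1 of type III, Col5a1 and Col5a2 of type V) form the load-bearing fibrils of the interstitium. At 162 µg all 5 had negative estimates, the median being -0.57 on the log2 scale within a range from -0.96 to -0.23, and the median stayed negative under the 5 other ways of correcting and scaling the arrays that can alter the ratios (-0.79 to -0.40). Of the 5, 1 was called and 4 had an unadjusted p below 0.05. At 18 µg and 54 µg their medians were -0.04 (0.07 from Cy5 alone) and -0.20, and none was called. The mean log2 ratio of 14 fibroblast markers was 1.89 to 2.15 on control arrays and 1.25 to 1.87 on those of 18 µg. It was 1.52 to 2.01 at 54 µg and 1.43 to 1.91 at 162 µg. Of these markers 7 are among the 42 genes, including Col1a1, Col1a2 and Col3a1, so the mean in part repeats the values of the fibrillar collagens. Its part in these results was not tested.

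Col3a1, the alpha chain of type III collagen, had log2 ratios of 0.29, -0.17, 0.24, 0.54 and 0.69 in controls. The 18 µg mice ranged from 0.01 to 1.06 with a median of 0.57. At 54 µg the 4 mice with a value had 0.82, -0.51, -1.19 and 0.52, because the spot of replicate 4 was left out as an outlier. At 162 µg all mice lay between -1.34 and -0.24 (median -0.60), below every control and below every mouse given 18 µg, while the 54 µg mice spread over both ranges. Col3a1 fell by 0.96 on the log2 scale at 162 µg (SE 0.25, adjusted p = 0.0281, 1.95-fold) and was lower by 1.17 than at 18 µg (SE 0.23, adjusted p = 0.00822). On the 4 slides that held both groups the difference from the control was -1.17, -0.90, -1.39 and -0.93. The call against controls was lost without control replicate 3, 4 or 5 or 162 µg replicate 1, 2, 5 or 6, where the change lay between -1.07 and -0.85 over all 22 fits with 1 mouse left out. That against 18 µg held in all 22 fits but was lost with median centring and without normalization.

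Col1a1 and Col1a2 encode the chains of type I collagen, the main protein of fibrils. Col1a1 had log2 ratios of -1.46, -1.30, -0.88, -1.45 and -1.57 in controls and -1.16, -2.05, -1.78, -1.90 and -0.98 at 54 µg, and ranged from -1.96 to -1.07 at 18 µg and from -2.38 to -1.51 at 162 µg (median -1.98). The 162 µg mice were thus mostly low, with 5 of 6 below every control, but the adjusted p was 0.148 for an estimate of -0.57 (SE 0.21). Col1a2 gave -0.58 at 162 µg (SE 0.15, adjusted p = 0.0331), which is 1.49-fold and just under the size required for a call. The called gene nearest to that size at 162 µg was Col6a1, at 1.67-fold. Col5a1 lay below every control in 6 of 6 mice at 162 µg, with an estimate of -0.42 (SE 0.14, adjusted p = 0.0927), and Col5a2 gave -0.23 (SE 0.17, adjusted p = 0.547).

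**Figure D2:**
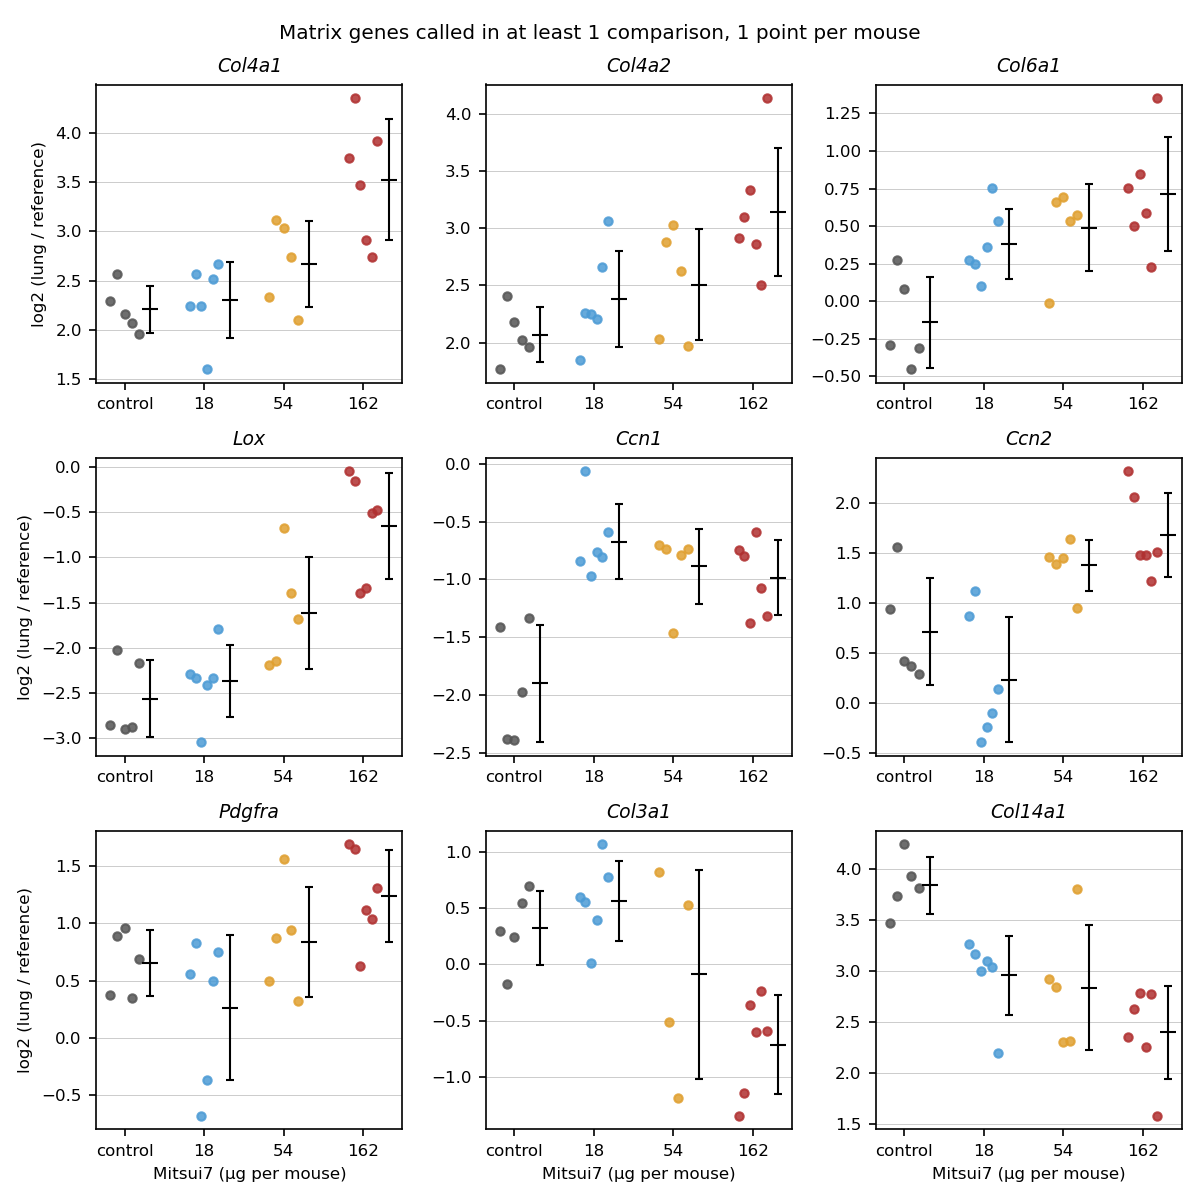
Log2 ratio of lung to reference RNA (vertical axis) for the 9 genes called in at least 1 comparison, by dose of Mitsui7 in µg (horizontal axis), 1 point per mouse, with the mean and SD as a bar beside the points. At 162 µg the points of Col4a1, Col4a2 and Lox lie above all control points and those of Col3a1 and Col14a1 below them.

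Of the 6 collagens of basement membranes, 5 had positive estimates at 162 µg (median 0.24, range -0.24 to 1.35), and the 2 that were called were the pair Col4a1 and Col4a2, whose products assemble into the same type IV molecule of nearly all basement membranes. The median of the list became slightly negative with median centring (-0.0032) and without normalization (-0.02). At 18 µg the median was 0.16 (-0.16 with median centring and -0.33 without normalization) and at 54 µg 0.07 (-0.03 with median centring), with no call at either dose.

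Col4a1 had log2 ratios of 2.29, 2.57, 2.16, 2.07 and 1.96 in controls. It ranged from 1.61 to 2.67 at 18 µg (median 2.38), was 2.34, 3.11, 3.03, 2.74 and 2.11 at 54 µg, and ranged from 2.74 to 4.35 at 162 µg (median 3.60). Every 162 µg mouse lay above every control and every 18 µg mouse, while 3 of 5 mice given 54 µg lay above all controls. Col4a1 rose by 1.35 at 162 µg (SE 0.24, adjusted p = 0.00324, 2.55-fold) and was higher by 1.12 than at 18 µg (SE 0.23, adjusted p = 0.00842). Neither call was lost in any of the 22 fits with 1 mouse left out, in which the change against controls lay between 1.19 and 1.53.

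Col4a2 had log2 ratios of 1.77, 2.41, 2.18, 2.03 and 1.96 in controls, ranged from 1.85 to 3.06 at 18 µg (median 2.26), was 2.03, 2.88, 3.03, 2.63 and 1.97 at 54 µg and ranged from 2.50 to 4.14 at 162 µg (median 3.01). The 162 µg mice again lay above every control, but they overlapped the 18 µg mice. Col4a2 rose by 0.90 at 162 µg (SE 0.25, adjusted p = 0.0391, 1.87-fold). Leaving out single mice ended the call in 11 of 22 fits (without control replicate 1, 3, 4 or 5, 18 µg replicate 1, 54 µg replicate 1 or 4, or 162 µg replicate 1, 2, 3 or 6), and over all 22 fits the change ranged from 0.76 to 1.05 and the adjusted p reached 0.122.

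Col4a3 and Col4a4 encode chains of a second type IV network, found in the alveolar and glomerular basement membranes. Col4a3 had log2 ratios of 3.94, 3.95, 4.71, 3.40 and 3.66 in controls, 2.97 to 4.46 at 18 µg (median 3.21), 3.11, 4.10, 3.33 and 2.70 in the 4 mice measured at 54 µg, and 3.1 to 5.40 at 162 µg (median 4.24). The groups overlapped throughout, and the estimate at 162 µg was 0.22 (SE 0.24, adjusted p = 0.747). For Col4a4 it was 0.23 (SE 0.22, adjusted p = 0.682). Col15a1 and Col18a1, whose chains connect basement membranes to the tissue beneath, gave -0.24 and 0.25. A second Col18a1 probe was called between 162 µg and 18 µg (0.61, SE 0.15, adjusted p = 0.0286) and is not among the 5 genes counted there, whose brightest probes decided. Col15a1 differed between 162 µg and 18 µg by -0.47 (SE 0.11, adjusted p = 0.0190), which is below the size for a call, but its signal was above background on only 4 of 6 arrays at 162 µg.

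Among the other collagens the changes ran in both directions, from -1.35 to 0.74 at 162 µg. Col6a1 encodes a chain of type VI collagen, which forms beaded filaments around cells. Its log2 ratios were -0.29, 0.27, 0.08, -0.45 and -0.31 in controls and -0.01, 0.66, 0.69, 0.54 and 0.57 at 54 µg, and ranged from 0.10 to 0.75 at 18 µg and from 0.23 to 1.35 at 162 µg (median 0.67). Of the 162 µg mice 5 of 6 exceeded all controls, as did 4 of 5 given 54 µg. Col6a1 rose by 0.74 at 162 µg (SE 0.17, adjusted p = 0.0171), and the call was lost without control replicate 4 or 5 or 162 µg replicate 3 (range 0.61 to 0.85). Its partner chain Col6a2 lay above every control in 6 of 6 mice at 18 µg, with an estimate of 0.76 (SE 0.27, adjusted p = 0.177), and in 3 of 6 at 162 µg (0.39, SE 0.27, adjusted p = 0.528). Col8a1, a short-chain collagen of vessel walls, was above all controls in 5 of 5 mice at 54 µg with an estimate of 0.44 (SE 0.13, adjusted p = 0.259), and Col13a1, a transmembrane collagen, gave -0.33 at 162 µg (SE 0.17, adjusted p = 0.348).

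Col14a1 encodes a collagen that sits on the surface of fibrils and regulates their width. Its log2 ratios were 3.47, 3.74, 4.24, 3.93 and 3.82 in controls. They ranged from 2.20 to 3.26 at 18 µg (median 3.07), were 2.92, 2.85, 2.30, 2.31 and 3.80 at 54 µg and ranged from 1.59 to 2.79 at 162 µg (median 2.49). All mice given 18 µg or 162 µg and 4 of 5 given 54 µg lay below every control. The estimate was -0.75 at 18 µg (SE 0.28, adjusted p = 0.186), -0.87 at 54 µg (SE 0.30, adjusted p = 0.343) and -1.35 at 162 µg (SE 0.28, adjusted p = 0.00778, 2.55-fold), the last of which was called and kept its call in all 22 fits with 1 mouse left out. Without the 4 dimmest arrays Col14a1 was also called at 18 µg (adjusted p = 0.0369) and at 54 µg (adjusted p = 0.00474). A second probe of Col14a1 gave -0.43 at 162 µg (adjusted p = 0.092) and was not called.

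Of the 11 genes for elastic fibres and cross-linking, 7 had positive and 4 negative estimates at 162 µg, and 1 was called (median 0.15, which became -0.15 with arrays centred on their median and -0.17 without normalization). That gene was Lox, the lysyl oxidase that cross-links both collagen and elastin, and it had the largest estimate of the 42 genes at this dose. Its log2 ratios were -2.86, -2.03, -2.90, -2.88 and -2.17 in controls, -3.05 to -1.79 at 18 µg (median -2.34), -2.19, -2.14, -0.67, -1.39 and -1.69 at 54 µg and -1.40 to -0.04 at 162 µg (median -0.49). Every mouse at 162 µg lay above every control and every 18 µg mouse, and 3 of 5 at 54 µg lay above all controls.

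Lox rose by 1.80 at 162 µg (SE 0.26, adjusted p = 7.25e-04, 3.47-fold) and was higher than at 18 µg by 1.69 (SE 0.24, adjusted p = 9.06e-04). At 54 µg the estimate was 0.84 (SE 0.28, adjusted p = 0.322) and at 18 µg 0.10 (SE 0.26, adjusted p = 0.908). The call held in all 22 fits with 1 mouse left out (1.56 to 1.96), and a second Lox probe was called as well (1.39, adjusted p = 0.0022). On single slides the difference between 162 µg and control was 1.98, 1.48, 2.75 and 1.67. The related Loxl1 and Loxl2 gave 0.34 (SE 0.15, adjusted p = 0.240) and 0.26 (SE 0.24, adjusted p = 0.682).

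**Figure D3:**
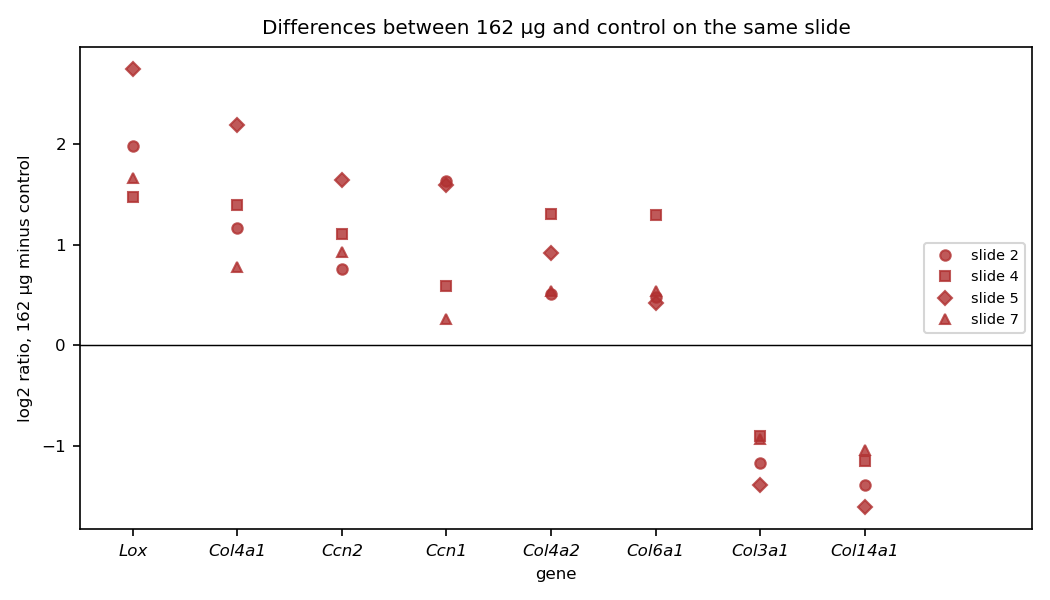
Difference in log2 ratio between the 162 µg and control arrays of the same slide (vertical axis) for the 8 genes called at 162 µg (horizontal axis), with 1 symbol for each of the 4 slides that held both groups. All points of Lox, Col4a1, Ccn2, Ccn1, Col4a2 and Col6a1 lie above 0 and all points of Col3a1 and Col14a1 below it.

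Elastin itself (Eln) had log2 ratios of 2.93, 2.12, 2.39, 2.42 and 2.75 in controls, 1.29 to 4.46 at 18 µg (median 2.57), 2.56, 2.64, 3.15, 2.80 and 2.31 at 54 µg and 2.48 to 3.97 at 162 µg (median 2.98). The groups overlapped, and the estimate at 162 µg was 0.42 (SE 0.35, adjusted p = 0.634). The fibulins, which help elastin to assemble, gave -0.53 for Fbln1, -0.09 for Fbln2 and -0.40 for Fbln5, none of them called. Fbln5 lay below every control in 5 of 5 mice at 54 µg (-0.45, SE 0.16, adjusted p = 0.362) and 5 of 6 at 162 µg (adjusted p = 0.142). Second probes of Fbln1 and Fbln5 gave smaller falls at 162 µg, -0.08 and -0.16, and were not called. Among microfibril genes Fbn1 gave 0.09 at 162 µg, Ltbp2 0.15, Mfap4 0.47 and Mfap5 -0.44, the last with 5 of 6 mice under the control range (adjusted p = 0.0822).

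The small leucine-rich proteoglycans bind collagen fibrils. Lumican (Lum) had the lowest estimate of all 42 genes at 18 µg, -1.35 (SE 0.47, adjusted p = 0.160), and gave -0.98 at 54 µg and -0.99 at 162 µg. Decorin (Dcn) gave -0.78, -0.63 and -0.47 and biglycan (Bgn) 0.42, 0.09 and 0.48. None of the 3 was called at any dose, although Lum was called at 54 µg when only that group and controls were fitted, and their standard errors, up to 0.58, were larger than the median of 0.22 over the 42 genes at 162 µg. The median of this list at 162 µg was -0.47 and stayed negative under these 5 other scalings, but was 0.00 without the 4 dimmest arrays.

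**Figure D4:**
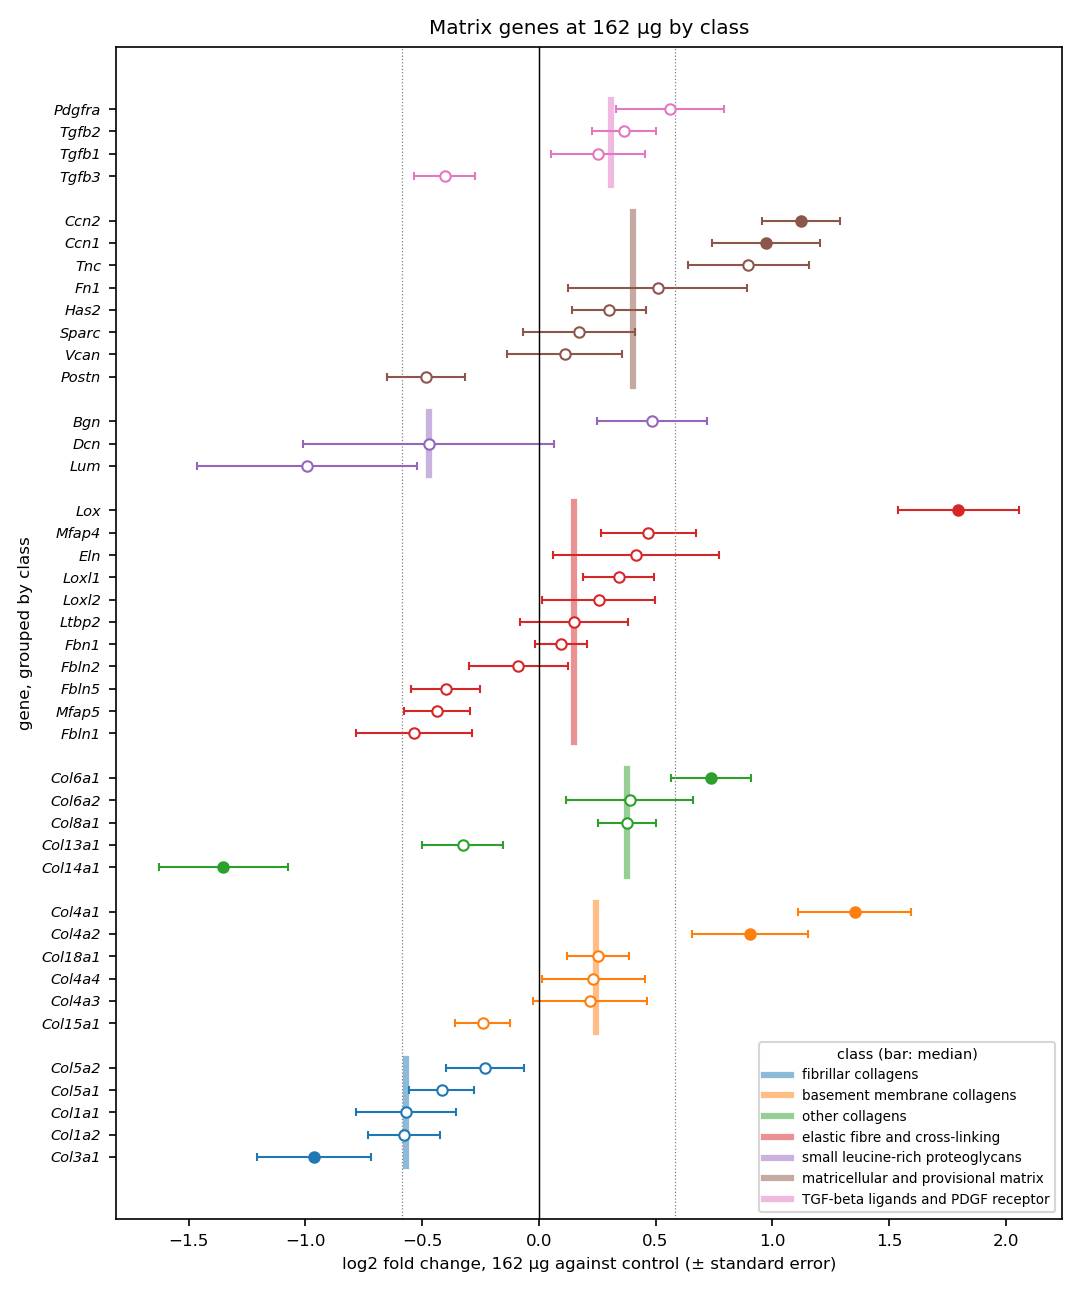
Log2 fold change at 162 µg against control (horizontal axis, ± standard error) for each of the 42 genes (vertical axis), with filled points for called genes, a vertical bar for the median of each class and dotted lines at 1.5-fold. The median bar of the fibrillar collagens lies at -0.57 and that of the matricellular and provisional matrix genes at 0.40.

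Among the 8 matricellular and provisional matrix genes, 7 had positive estimates at 162 µg and 2 were called, with a median of 0.40 that stayed positive under these 5 other scalings (0.02 to 0.56). Ccn1 and Ccn2 (known earlier as Cyr61 and CTGF) encode secreted proteins of the CCN family that bind integrins. Ccn1 had log2 ratios of -1.42, -2.38, -2.39, -1.97 and -1.33 in controls, -0.97 to -0.06 at 18 µg (median -0.78), -0.71, -0.73, -1.47, -0.79 and -0.73 at 54 µg and -1.38 to -0.59 at 162 µg (median -0.94). All mice given 18 µg, 4 of 5 given 54 µg and 5 of 6 given 162 µg lay above every control. Ccn1 rose by 1.24 at 18 µg (SE 0.23, adjusted p = 0.0197, 2.37-fold) and by 0.97 at 162 µg (SE 0.23, adjusted p = 0.0186), with 1.01 at 54 µg (SE 0.25, adjusted p = 0.130). The call at 18 µg was lost without control replicate 1 or 18 µg replicate 5 (1.01 to 1.42 over the 22 fits) and that at 162 µg without control replicate 2 or 3 or 162 µg replicate 1 or 2 (0.74 to 1.15). Its level did not pass the test between any pair of doses.

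Ccn2 had log2 ratios of 0.94, 1.56, 0.42, 0.37 and 0.30 in controls, -0.39 to 1.13 at 18 µg (median 0.03), 1.46, 1.40, 1.45, 1.64 and 0.95 at 54 µg and 1.22 to 2.32 at 162 µg (median 1.5). The 18 µg mice were mostly low and the 162 µg mice lay above all of them, whereas control replicate 2 reached into the range of the higher doses. Only 2 of 6 mice at 162 µg exceeded every control. On the same slide, however, the 162 µg mouse was above its control on 4 of 4 slides, by 0.76, 1.11, 1.64 and 0.93.

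With slide in the model, Ccn2 gave -0.37 at 18 µg (SE 0.17, adjusted p = 0.292), 0.85 at 54 µg (SE 0.18, adjusted p = 0.0679) and 1.12 at 162 µg (SE 0.17, adjusted p = 8.61e-04), the last of which was called. It was higher than at 18 µg by 1.49 at 162 µg (SE 0.16, adjusted p = 1.14e-04, 2.82-fold) and by 1.23 at 54 µg (SE 0.17, adjusted p = 0.0194). Both calls at 162 µg held in all 22 fits with 1 mouse left out. That between 54 µg and 18 µg was lost without control replicate 3, 18 µg replicate 4 or 5, 54 µg replicate 3 or 4 (range 1.07 to 1.36 over the 22 fits), and also with median centring, without normalization, without the slide term or with slide as a random block, with only these 2 groups fitted and without the 4 dimmest arrays.

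Tenascin C (Tnc), a glycoprotein of provisional matrix that is scarce in healthy adult lung, had log2 ratios of -1.11, -1.36, -1.20, -1.0 and -1.01 in controls, where its signal was well above background on 2 of 5 arrays. It ranged from -1.04 to 0.35 at 18 µg (median -0.54), was -0.22, -0.59, -0.70, 0.54 and 0.57 at 54 µg and ranged from -0.68 to 0.86 at 162 µg (median -0.18). All 11 mice of the 2 higher doses and 5 of 6 at 18 µg lay above every control. Even so Tnc was not called, with estimates of 0.60 (SE 0.26, adjusted p = 0.274), 0.94 (SE 0.28, adjusted p = 0.241) and 0.90 (SE 0.26, adjusted p = 0.0503). Without the 4 dimmest arrays it was called at 54 µg (adjusted p = 0.0140) and 162 µg (adjusted p = 0.0121). A second Tnc probe gave 0.51, 0.58 and 0.53 at 18, 54 and 162 µg over all arrays. It was not called (adjusted p = 0.212, 0.385 and 0.138).

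Fibronectin (Fn1), an adhesive protein of early wound matrix, had log2 ratios of -2.30, -1.45, -1.80 and -2.56 in the 4 controls with a value, -2.19 to -1.02 at 18 µg (median -1.71), -1.58, -3.73, -1.67 and -1.58 in 4 mice at 54 µg and -2.60 to -1.30 at 162 µg (median -1.61). The groups overlapped and the estimate at 162 µg was 0.51 (SE 0.38, adjusted p = 0.571). Periostin (Postn) gave -0.52 at 18 µg (SE 0.17, adjusted p = 0.125), where 5 of 6 mice lay under the control range, and -0.48 at 162 µg. Sparc, Vcan and the hyaluronan synthase Has2 gave 0.17, 0.11 and 0.30 at 162 µg.

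None of the TGF-beta ligands was called at any dose. Tgfb1, the main ligand of inflamed lung, had log2 ratios of -0.03, 0.07, -0.40, -0.44 and -0.08 in controls, -0.04 to 1.34 at 18 µg (median 0.30), -0.04, 0.41, -0.09, 0.40 and 0.00 at 54 µg and -0.19 to 1.37 at 162 µg (median -0.03). In 5 of 6 mice at 18 µg it was above all controls (0.55, SE 0.20, adjusted p = 0.183), and at 162 µg in 2 of 6 (0.25, SE 0.20, adjusted p = 0.603). The estimate at 162 µg turned slightly negative with median centring (-0.03) and without normalization (-0.04).

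Tgfb2 had log2 ratios of -0.38, -0.52, -0.08, -0.39 and 0.30 in controls, -0.71 to 0.21 at 18 µg, -0.23, -0.02, 0.42, 0.40 and -0.01 at 54 µg and 0.12 to 0.41 at 162 µg. It gave 0.36 at 162 µg (SE 0.14, adjusted p = 0.145), with control replicate 5 inside the range of the treated mice. Tgfb3 had 0.65, 0.39, 0.56, 0.63 and 0.53 in controls, -0.17 to 0.52 at 18 µg, 0.33, -0.06, -0.04, -0.15 and -0.21 at 54 µg and -0.17 to 0.61 at 162 µg. It lay below every control in 5 of 6, 5 of 5 and 5 of 6 mice and gave -0.27, -0.49 and -0.40 (adjusted p = 0.325, 0.210 and 0.0798).

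**Figure D5:**
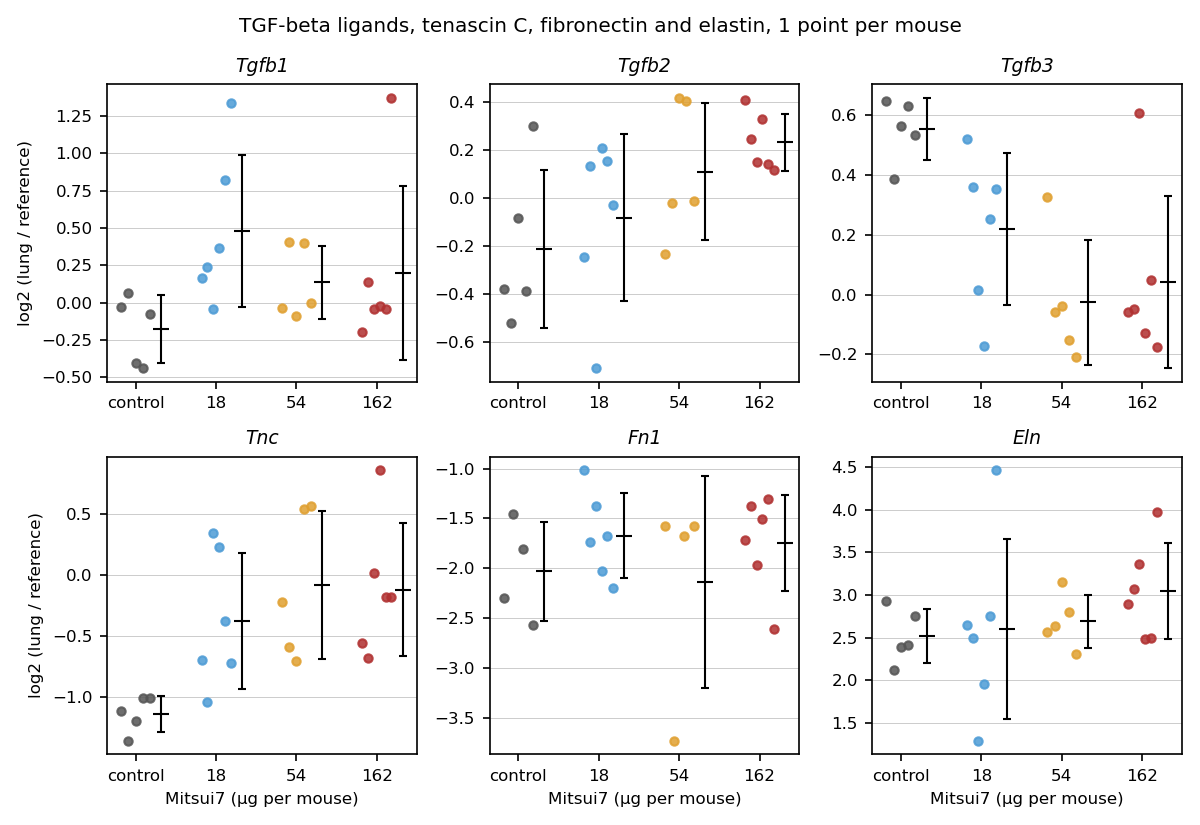
Log2 ratio of lung to reference RNA (vertical axis) for the 3 TGF-beta ligands, tenascin C, fibronectin and elastin by dose of Mitsui7 in µg (horizontal axis), 1 point per mouse, with the mean and SD as a bar beside the points. Tnc at 54 µg and 162 µg lies above all control points, Tgfb3 at 54 µg lies below them, and the groups of the other genes overlap.

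Pdgfra, the PDGF receptor of lung fibroblasts and their alveolar progenitors, had log2 ratios of 0.38, 0.89, 0.96, 0.35 and 0.69 in controls, -0.68 to 0.83 at 18 µg (median 0.53), 0.49, 0.88, 1.56, 0.94 and 0.32 at 54 µg and 0.63 to 1.69 at 162 µg (median 1.22). The 162 µg mice were high, with 5 of 6 above every control and above every 18 µg mouse. Pdgfra was higher at 162 µg than at 18 µg by 0.91 (SE 0.22, adjusted p = 0.0229), whereas the estimate against controls was 0.56 (SE 0.23, adjusted p = 0.194). The call between the doses was lost without 18 µg replicate 3 or 4 or 162 µg replicate 1, 2 or 3 (0.69 to 1.05), and with median centring or without normalization.

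Other genes of these pathways were read from 7 companion lists, whose counts stand beside the 3.32% of all expressed genes called higher and 3.53% called lower at 162 µg. Of 19 expressed TGF-beta receptors, SMADs and latent binding proteins, 2 were called higher at 162 µg. They were the co-receptor Tgfbr3 (0.64, SE 0.18, adjusted p = 0.0417) and Itgb6 (0.80, SE 0.22, adjusted p = 0.0397), a chain of the epithelial integrin that releases latent TGF-beta. Tgfbr2, the type II receptor, was higher at 162 µg than at 18 µg (0.69, SE 0.12, adjusted p = 0.00360). Among 14 genes known as TGF-beta targets, those called higher at 162 µg included Fstl3 (1.17, SE 0.17, adjusted p = 7.01e-04), a binder of activins, Junb (0.90, SE 0.21, adjusted p = 0.0190) and Ccn2, which is also among the 42 genes. Many of these targets answer to other signals as well.

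Of 19 expressed collagen processing genes, 3 were called lower at 162 µg and 1 higher. P4ha1, the catalytic chain of the prolyl hydroxylase that stabilises the collagen helix, fell by 1.45 (SE 0.23, adjusted p = 0.00126), and Serpinh1, the collagen chaperone HSP47, fell by 1.04 (SE 0.26, adjusted p = 0.0238). Pcolce2, an enhancer of procollagen cleavage, fell by 0.71 (SE 0.20, adjusted p = 0.0422), while Fkbp10, another collagen chaperone, rose by 0.64 (SE 0.12, adjusted p = 0.00432). P4ha1 and Serpinh1 were also lower at 162 µg than at 18 µg (-1.06 and -1.51, adjusted p = 0.00813 and 0.00191).

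Of 13 matrix receptors, Itga8 of interstitial cells fell by 0.71 at 162 µg (SE 0.16, adjusted p = 0.0147) and the collagen receptor Itga11 fell by 0.88 at 18 µg (SE 0.20, adjusted p = 0.0427). Among 8 hyaluronan genes the synthase Has1 rose by 1.31 at 162 µg (SE 0.35, adjusted p = 0.0326). Of 6 PDGF ligands and receptors none was called by limma at 162 µg against controls, with 2 at an unadjusted p below 0.05, beside 28.8% of all expressed genes. At 54 µg no gene of the 7 lists was called by limma against controls, with 16 of their 92 entries at an unadjusted p below 0.05, beside 13.8% of all expressed genes, and at 18 µg Itga11 was called alone.

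Markers of the cells that make these proteins were read beside them, in the main setting only. Of 14 fibroblast markers, which include 7 of the 42 genes, 4 were higher and 10 lower at 162 µg (median -0.32), and 2 were called, Col3a1 and Clec3b (-1.03, SE 0.26, adjusted p = 0.0268). The mean log2 ratio of the list ranged from 1.89 to 2.15 in controls and from 1.43 to 1.91 at 162 µg. Of 8 myofibroblast and smooth muscle markers none was called (median 0.00 at 162 µg), with Acta2 at 0.05 and Tagln at -0.04. Of 7 pericyte markers Rgs5 was called higher at 162 µg (1.25, SE 0.20, adjusted p = 0.00130). The mean log2 ratio of that list was 1.51 to 2.28 in controls and 2.19 to 2.64 at 162 µg. It includes Postn, 1 of the 42 genes, whose estimate at 162 µg was negative. Of 8 endothelial markers (median 0.06), 7 type II alveolar (-0.07), 6 mesothelial (-0.09) and 5 platelet markers (0.12) none was called. Of 5 type I alveolar markers Pdpn was called higher (1.04). Their mean log2 ratio was 3.37 to 3.68 in controls and 3.61 to 4.12 at 162 µg. Among 7 neutrophil markers 6 were higher (median 0.64) and none was called. Their mean log2 ratio reached 4.60 on 1 control array, where the control median was 2.15 and the highest value at 162 µg 4.42. Marco was called higher among 7 macrophage markers (1.51, SE 0.28, adjusted p = 0.00460). The mean log2 ratio of the macrophage list overlapped, at 3.83 to 4.31 in controls and 3.41 to 4.96 at 162 µg. All of these markers were expressed, and the part of these cell types in the results was not tested. Of 9 cartilage markers 5 were expressed, and their mean log2 ratio was 0.06 to 0.46 in controls and -0.24 to 0.07 at 162 µg. The cartilage marker Matn1 was not above background in any group, and its companion Chad fell by 1.51 at 162 µg (SE 0.43, adjusted p = 0.0485).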

How the data were processed

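RNA from the right lung of 22 mice was measured on 2-colour Agilent arrays, 1 array per mouse on 7 slides. The authors deposited scanner files, made with Feature Extraction (version 10.7.3.1 in their headers), which hold the median Cy5 and Cy3 intensity of each spot, and a table of processed log2 ratios whose normalization is not given in the sources used here and which served as an alternative. From the intensities, log2(Cy5/Cy3) was computed without background subtraction and normalized within each array by loess (span 0.3). Control spots were left out, spots marked as outliers were set to missing and replicate spots of a probe were summarised by their median. A probe was expressed when its Cy5 signal lay over the trimmed mean of negative controls by 3 trimmed SD on 80% or more of any group's arrays. The number of arrays limits the precision, and the median signal was 1.18 to 2.50 times background. Dose and slide were fitted in limma 3.58.1 (R 4.3.3), a moderated model in place of the MAANOVA of the original study, with adjustment over 55681 probes. Each gene was represented by its brightest probe. The script was tested on simulated data. The genes and lists were chosen with earlier results of these data known. By a rule, full values are given for genes called in any comparison and for Col1a1, Col3a1, Col4a1, Col4a3, Fn1, Eln, Tnc, Tgfb1, Tgfb2 and Tgfb3, and the others by range and count, with up to 5 called genes per companion list. Other genes named with values were chosen after these were seen. Alternatives were the background correction, the scaling, the handling of slide, the expression filter, the groups fitted and each mouse left out. Some results of the companion lists are not reported here. Promoter sequences are from RefSeq (GRCm38.p6).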

Additional observations from a re-analysis of the deposited data

Results flagged for a closer look

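In 11 of 168 groups of values (42 genes in 4 groups), 1 mouse stood apart from the rest of its group by Dixon's criterion, which chance alone meets in about 1 of 20 groups. At 54 µg these were Col6a1 in replicate 1 (-0.012, nearest value 0.54), Fn1 in replicate 3 (-3.73, nearest -1.67) and Ccn1 in replicate 3 (-1.47, nearest -0.79). At 162 µg they were Ltbp2 (0.95, nearest 0.41) and Tgfb1 (1.37, nearest 0.14) in replicate 6, Bgn (0.86, nearest -0.17) and Tgfb3 (0.61, nearest 0.05) in replicate 3 and Dcn in replicate 5 (2.96, nearest 0.83). At 18 µg it was Col14a1 in replicate 6 (2.20, nearest 3.00), and among controls Col6a2 in replicate 5 (-0.97, nearest -0.31) and Lum in replicate 4 (3.26, nearest 1.98). The arrays of 18 µg replicate 6, 54 µg replicate 3 and 162 µg replicate 6 were among the 4 with under 60% of probes above background, and the part of this in the values was not tested.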

How the results depend on the processing

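Of 912 values of single genes under 16 alternatives, 853 kept their side of the threshold, 38 lost the call and 21 gained one. In 29 values, of 13 results that were not called, the sign of the estimate changed, and no called result changed sign. Aquantile scaling after loess, which is among the alternatives, leaves the log ratios as they are and could change nothing. Dropping the expression filter could change nothing either, because all 42 genes had passed it. A stricter expression filter and calls without the 1.5-fold requirement used the estimates of the main fit, so no sign could change there. The counts of values that kept their side or sign include these settings. The calls of Lox and Col4a1 at 162 µg, and that of Ccn2 between 162 µg and 18 µg, were lost only without normalization. The number of genes called at 18 µg was 0 with median centring, without normalization, in the deposited table and with only the compared groups fitted, and 2 from Cy5 alone and without the 4 dimmest arrays. At 54 µg it was 1 from Cy5 alone and with slide as a random block, 2 without the 4 dimmest arrays and 8 with only the compared groups fitted. At 162 µg it was 3 with median centring, 0 without normalization and 5 in the deposited table. Between 162 µg and 18 µg it was 3 with median centring and 0 without normalization, and between 162 µg and 54 µg it was 1 without the 4 dimmest arrays. Between 54 µg and 18 µg it was 0 with median centring, without normalization, without the slide term, with slide as a random block, with only the compared groups fitted and without the 4 dimmest arrays. The median of the 42 genes at 18 µg was -0.31 with median centring and -0.47 without normalization. At 54 µg it was 0.028 with median centring, 0.19 without normalization and from Cy5 alone, 6.93e-04 in the deposited table, 0.058 without the slide term, 0.054 with slide as a random block and 0.051 without the 4 dimmest arrays. At 162 µg it was -0.050 with median centring and -0.068 without normalization. Over all expressed probes, median centring moved the median by -0.13 at 18 µg and -0.10 at 162 µg, no normalization by -0.29, 0.14 and -0.13 at the 3 doses, and Cy5 alone by 0.18 at 18 µg. The causes were not tested.

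With 1 mouse left out, the count ranged from 0 to 2 at 18 µg, 0 to 2 at 54 µg, 5 to 10 at 162 µg, 4 to 7 between 162 µg and 18 µg, 0 to 2 between 162 µg and 54 µg and 0 to 1 between 54 µg and 18 µg, and the median from -0.03 to 0.13, 0.0065 to 0.11 and 0.089 to 0.27. Replicate numbers were not taken as pairing the mice, because not every same-numbered pair had deviations correlated above 0.1 (-0.17 to 0.62 over 31 pairs). Same-numbered mice on different slides had a median correlation of 0.10 (20 pairs, 10 of them above 0.1), mice sharing neither number nor slide -0.08 (137 pairs, 30 above 0.1). Mice that shared a slide but not a number did not meet this rule either (-0.24 to 0.54 over 13 pairs). The rule therefore cannot decide whether the numbers pair the mice. A replicate block in the model gave 4 calls at 54 µg and 0 between 54 µg and 18 µg, and moved no other count by over 1.5 times. Signal was low, with 52.1% of probes above background on the dimmest array, so that the absence of a call does not show that a gene did not differ.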
